A study of Arabidopsis thaliana with 24 samples.

Results

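The comparison described here was that of seedlings of the exa1-1 mutant with wild type seedlings on plain medium, the salt-free control of a salt experiment. Its members were every gene expressed in 6 of the 24 libraries of the series: 3 of wild type and 3 of exa1-1. Both genotypes of Arabidopsis thaliana, the wild type being Col-0, were 9 days old, had been raised on Murashige-Skoog salts at 1/2 strength (1/2 MS) with 1% sucrose, and were taken after 60 min on 1/2 MS without NaCl. RNA came from about 50 mg of whole seedlings, and the submitters describe the 3 libraries of each group as independent biological replicates. The kind of mutation in exa1-1 and whether other alleles were used were not given in the sources used here. Of the 32833 genes in the deposited count table, 21462 had enough counts to be tested. Levels are in CPM, counts scaled to library size. A difference is the log2 of exa1-1 over wild type, with its standard error (SE) over 3 libraries a group. The SE is taken after a prior count of 2 is added, so at genes with few counts it can be too small for the difference. A gene was said to rise or fall where edgeR's quasi-likelihood test gave a Benjamini-Hochberg adjusted p under 0.05 over all genes tested.

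EXA1 is a large protein with a GYF domain, a fold that binds proline-rich stretches of other proteins. It was named for its need in the accumulation of potexviruses, and it binds cap-binding factors of the eIF4E family, which place it at the start of translation. Plants that lack it have been studied for altered immunity and growth. Aux/IAA proteins, SAUR proteins and GH3 enzymes are the early gene families of the auxin response, defensins are small secreted antifungal peptides, and salicylic acid and jasmonate are the hormones of separate branches of plant immunity.

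The mutated gene was checked first. EXA1 (AT5G42950, chromosome 5) was at 134, 116 and 123 CPM in wild type and 35.9, 36.5 and 35.4 CPM in exa1-1 (log2 difference -1.79 ± 0.06, adjusted p = 3.14e-15). All 3 mutant libraries lay far below all 3 wild type libraries, and the transcript was still counted in each. Its homologues with a GYF domain did not pass: AT1G24300 differed by -0.10 ± 0.07 and AT1G27430 by -0.05 ± 0.07, each with overlapping groups. Of 8 other tested genes that start within 25 kb of EXA1, 2 fell: AT5G42930, an alpha/beta-hydrolase gene (-0.54 ± 0.10), and AT5G42940, a RING/U-box gene (-0.18 ± 0.03). Of 96 genes starting within 250000 bases, 16 rose (16.7%) and 9 fell (9.38%). Within 1000000 bases, 43 of 406 rose (10.6%) and 28 fell (6.90%). Among all genes tested, 8.14% rose and 10.1% fell. TZP, ATAUX2-11, YUC5 and PDF1.2, described below, lie on the same chromosome between 17526660 and 17907638, and EXA1 begins at 17224270.

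Library totals ran from 17658196 to 20690628 counts over the 6 libraries. Pearson correlations of log2 CPM across genes were 0.991 to 0.994 within a genotype and 0.984 to 0.987 between genotypes. Principal component 1 took up 49.2% of the variance and placed all wild type libraries on one side and all exa1-1 libraries on the other. Genes of the chloroplast genome made up 0.0104% to 0.0170% of the counts and genes of the mitochondrial genome 0.0193% to 0.0332%. The summed level of 15 root markers was 2454, 2777 and 2537 CPM in wild type and 2728, 2487 and 2692 CPM in exa1-1, so the groups overlapped, and none of the 15 was at 0. In wild type replicate 2 the 9 seed storage markers summed to 24.4 CPM, against 0.384 and 0.241 CPM in the other wild type libraries and 1.73, 5.70 and 2.57 CPM in exa1-1; without that library 2 seed storage genes rose.

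In all, 3920 of 21462 genes differed between the genotypes, 18.3% of those tested. Of these, 1747 (8.14%) rose and 2173 (10.1%) fell in exa1-1. Most changes were small: the median size was 0.35 on the log2 scale and 2641 of the 3920 were under 0.5. Larger changes leaned down, with 105 genes (0.489%) higher and 292 genes (1.36%) lower by at least 1 log2 unit, and 16 against 53 by at least 2. The 2 genotypes did not overlap at 7146 genes, 33.3% of those tested, and 3744 of the called genes were among them. Replicates are called wild type 1 to 3 and exa1-1 1 to 3; without exa1-1 3, 1111 genes rose and 1578 fell.

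The share of genes called grew with their level. In the lowest of 4 equal bins by mean log2 CPM, 3.504% rose and 7.70% fell, and in the highest bin 13.0% rose and 12.8% fell. By chromosome, between 7.38% and 8.83% of genes rose and between 8.88% and 11.5% fell. Of 598 long noncoding RNA genes tested, 17 rose and 18 fell (2.84% and 3.01%). Among protein-coding genes in 4 bins by span, 12.6% of the shortest fell, against 8.80% of the longest.

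**Figure D1:**
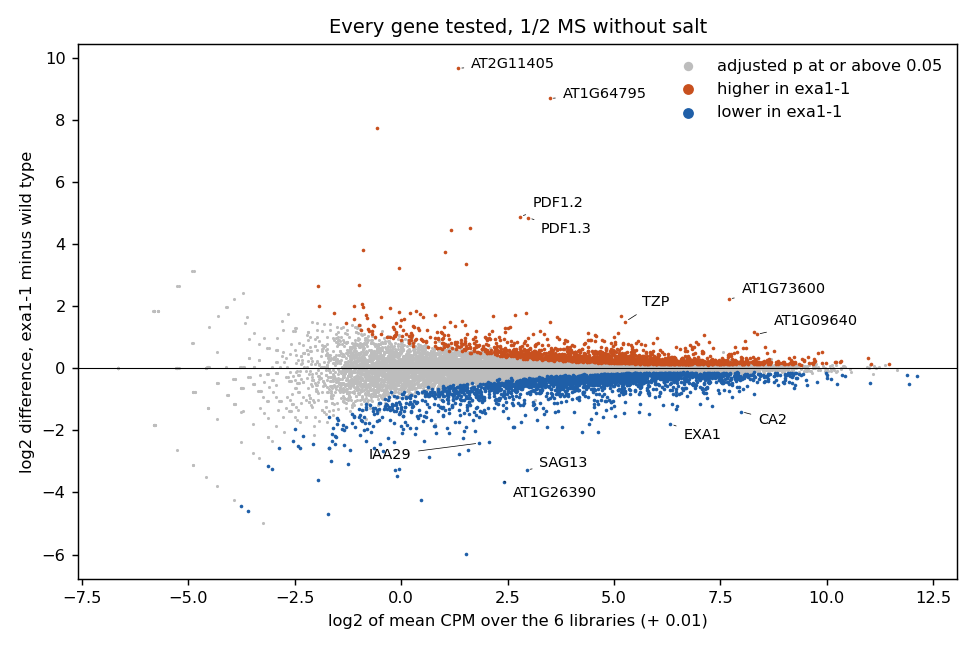
Each point is 1 of the 21462 genes tested: the horizontal axis is the log2 of its mean CPM over the 6 libraries and the vertical axis is its log2 difference, exa1-1 minus wild type. The 1747 genes that rose are orange, the 2173 that fell are blue and the rest are grey; genes with almost no wild type counts stand at the top, with defensin genes below them, and EXA1 sits at -1.79.

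Plant defensins, small secreted peptides with antifungal activity, were among the genes with the largest rises. PDF1.2 (AT5G44420) was at 0.240, 0.911 and 0.193 CPM in wild type and 11.2, 18.6 and 10.3 CPM in exa1-1 (log2 difference 4.88 ± 0.62, adjusted p = 6.14e-10). PDF1.3 (AT2G26010) was at 0.480, 0.911 and 0.193 CPM in wild type and 12.7, 19.9 and 13.3 CPM in exa1-1 (log2 difference 4.85 ± 0.56, adjusted p = 2.76e-11). At both genes every exa1-1 library was above every wild type library, as the rule for the 15 largest changes required. Replicate 2 was the highest of its genotype each time. PDF1.2c (AT5G44430) went from 0.192, 0.288 and 0.0964 CPM to 2.97, 6.31 and 3.66 CPM (log2 difference 4.46 ± 0.43, adjusted p = 3.33e-08). PDF1.2b (AT2G26020) went from 0, 0.144 and 0.0482 CPM to 1.03, 1.16 and 0.760 CPM (log2 difference 3.81 ± 0.41, adjusted p = 3.26e-05). Without replicate 2 of wild type the differences of PDF1.2, PDF1.3 and PDF1.2b were 5.91, 5.49 and 5.03. Of 10 defensin and defensin-like genes listed, 9 were tested, 5 rose and 0 fell (1 was lower at an unadjusted p under 0.05 and by DESeq2, and 1 fell without replicate 2 of either genotype). The median difference of the list was 0.23, against 0.0026 over all genes, of which 8.14% rose and 10.1% fell. The fifth to rise, LCR68, did so by 0.23 ± 0.10 and did not pass without 1 library in 4 of 6 cases, or with values per length (FPKM).

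The promoters of the 4 strongly raised defensin genes are shown because the genes moved together and because binding sites of ethylene response factors are known from PDF1.2. Each run is the 250 bases just before the annotated gene start in RefSeq's TAIR10.1 assembly, read 5′ to 3′ on the gene's own strand. Capitals mark the GCC box, GCCGCC, which ethylene response factors bind, sought on both strands.
PDF1.2 promoter, chr5:17907639-17907888, - strand: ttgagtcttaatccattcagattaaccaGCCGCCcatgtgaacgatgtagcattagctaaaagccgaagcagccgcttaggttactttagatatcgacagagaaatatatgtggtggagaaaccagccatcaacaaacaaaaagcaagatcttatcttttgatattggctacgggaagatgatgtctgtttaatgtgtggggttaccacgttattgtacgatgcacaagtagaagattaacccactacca
PDF1.2b promoter, chr2:11088873-11089122, + strand: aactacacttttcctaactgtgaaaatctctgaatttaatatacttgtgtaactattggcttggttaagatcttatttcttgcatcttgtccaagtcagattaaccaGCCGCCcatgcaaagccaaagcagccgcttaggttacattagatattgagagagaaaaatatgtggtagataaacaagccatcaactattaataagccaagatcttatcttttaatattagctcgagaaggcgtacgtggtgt
PDF1.2c promoter, chr5:17909508-17909757, - strand: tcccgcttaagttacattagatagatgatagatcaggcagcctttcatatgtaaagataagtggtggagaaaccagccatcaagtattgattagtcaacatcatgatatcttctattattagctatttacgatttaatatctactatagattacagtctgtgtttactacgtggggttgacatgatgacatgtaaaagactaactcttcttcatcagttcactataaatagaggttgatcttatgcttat
PDF1.3 promoter, chr2:11087030-11087279, + strand: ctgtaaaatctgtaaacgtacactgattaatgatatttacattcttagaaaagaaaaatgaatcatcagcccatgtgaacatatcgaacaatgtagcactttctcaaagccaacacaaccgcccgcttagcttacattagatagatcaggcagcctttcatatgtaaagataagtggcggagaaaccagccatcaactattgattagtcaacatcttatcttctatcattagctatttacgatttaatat
The letters GCCGCC were found once in PDF1.2, beginning 222 bases before the start, and once in PDF1.2b, beginning 143 bases before it. In this window of PDF1.2c and PDF1.3 they were not present. Of the 250-base windows of 20579 protein-coding genes tested, 400 (1.94%) hold GCCGCC. The share was 1.92% among the 1720 that rose and 1.96% among the 2141 that fell. Transcripts of these 4 genes share exact runs of 39 to 72 bases with each other, and the libraries were read as pairs of 150 bases.

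Other large rises came from genes of varied function. AT1G73600, described as an S-adenosyl-L-methionine-dependent methyltransferase, was at 116, 47.9 and 54.4 CPM in wild type and 381, 281 and 362 CPM in exa1-1 (log2 difference 2.23 ± 0.42, adjusted p = 1.19e-07), and wild type replicate 1 was above the other wild type libraries. XPL1 (AT3G18000), which methylates phosphoethanolamine on the way to choline, went the other way, from 222, 209.6 and 226 CPM to 95.9, 93.3 and 97.2 CPM (log2 difference -1.200 ± 0.04, adjusted p = 3.27e-13). At XPL1, chosen as abundant, the groups did not overlap, as the rule for abundant genes required. CORI3 (AT4G23600), a coronatine- and jasmonate-induced gene of the tyrosine transaminase family, was at 17.1, 17.4 and 16.7 CPM in wild type and 57.4, 55.9 and 52.3 CPM in exa1-1 (log2 difference 1.69 ± 0.04, adjusted p = 6.57e-12). TZP (AT5G43630), a zinc knuckle gene known for morning-phased growth, was at 20.3, 20.2 and 19.7 CPM in wild type and 58.8, 53.97 and 58.1 CPM in exa1-1 (log2 difference 1.505 ± 0.04, adjusted p = 3.17e-13), and its libraries differed little within a genotype. AT1G09640, the gamma chain of elongation factor EF1B, rose from 209, 207 and 208 CPM to 446, 441 and 445 CPM (log2 difference 1.09 ± 0.01, adjusted p = 6.96e-14), with groups far apart and narrow.

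COR15A (AT2G42540), which encodes a chloroplast protein that protects membranes in the cold, was at 2.88, 2.97 and 4.53 CPM in wild type and 9.08, 15.7 and 10.6 CPM in exa1-1 (log2 difference 1.78 ± 0.31, adjusted p = 2.51e-06). GLIP2 (AT1G53940), a secreted GDSL lipase, was at 1.54, 2.49 and 2.31 CPM in wild type and 6.87, 5.66 and 7.84 CPM in exa1-1 (log2 difference 1.68 ± 0.25). GRP9 (AT2G05440), a glycine-rich protein gene, rose from 182, 179 and 222 CPM to 435, 431 and 435 CPM (log2 difference 1.16 ± 0.10). FTM1 (AT1G43800), of the stearoyl-ACP desaturase family, rose from 122, 74.7 and 69.1 CPM to 192, 177 and 191 CPM (log2 difference 1.07 ± 0.26), and did not pass by limma on FPKM values without a filter (adjusted p = 0.0772). The other genes among the 15 largest rises were AT5G65980, AT4G10265, AT4G33720, AGP13, AT5G39110, AT1G57590, AT5G46900 and AT2G17850. They rose by 1.298 to 1.52 from wild type levels under 8 CPM. The 15 largest changes each way were chosen among genes whose groups did not overlap and whose mean log2 CPM was at least 1. AT3G45160, AT4G15160 and AT5G06630 were among the 10 most abundant genes to rise by at least 1 log2 unit without overlap. Their differences were 1.06 to 1.14. MRD1 (AT1G53480) was outside the rule for named genes and was chosen after its values were seen: it was at 0.384, 0.335 and 0.0482 CPM in wild type and 2.43, 10.99 and 4.28 CPM in exa1-1 (log2 difference 4.51 ± 0.83), with replicate 2 of exa1-1 highest.

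A few genes were counted in exa1-1 and all but absent from wild type. AT1G64795 was at 0, 0 and 0.145 CPM in wild type and 20.4, 24.9 and 21.9 CPM in exa1-1 (adjusted p = 3.14e-15). It lies on the plus strand of chromosome 1 from 24082579 to 24082848, inside the minus-strand gene ILA (AT1G64790), which was at 196, 164 and 179 CPM in wild type and 193, 169 and 191 CPM in exa1-1 with overlapping groups. AT2G11405 had 0 counts in the 3 wild type libraries and 87, 100 and 122 counts in exa1-1. Set against a floor of 3 counts over the wild type group, it was at least 105-fold higher. AT3G24514 had 0 counts in wild type and 22, 21 and 38 in exa1-1, at least 27.6-fold higher by the same floor, and AT3G24516 on its opposite strand had 3, 3 and 6 counts against 0. All are described only as uncharacterized proteins. Whether reads were assigned by strand was not given in the sources used here, so sense and antisense reads may not be told apart at these overlapping loci. In the other direction, CYP96A5 had 7, 10 and 22 counts in wild type and 0 in all exa1-1 libraries, at least 12.7-fold lower.

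**Figure D2:**
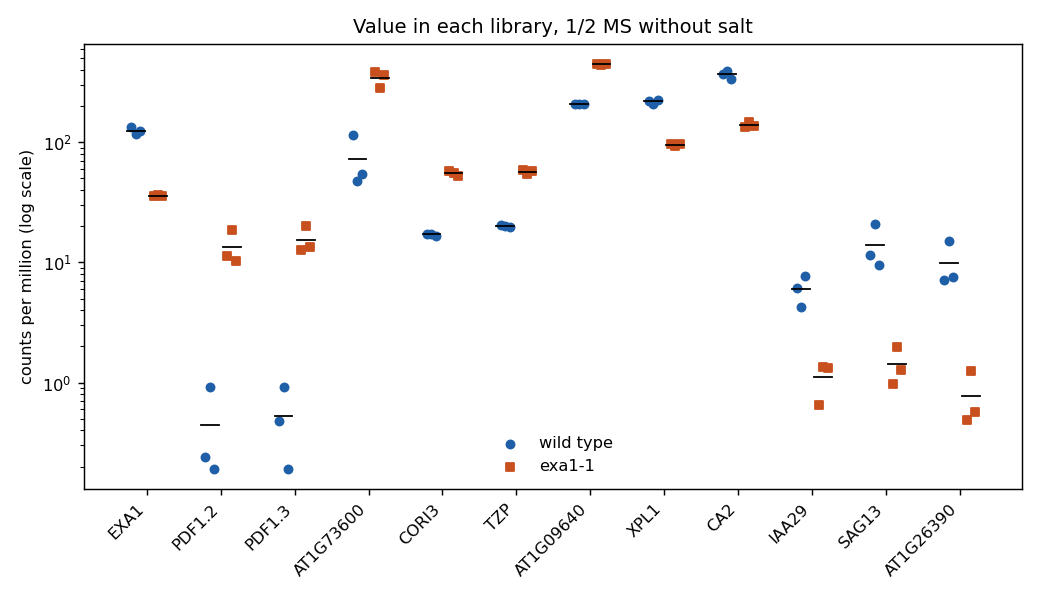
Points are the CPM of 12 genes in each of the 3 wild type libraries (blue circles) and 3 exa1-1 libraries (orange squares), on a log scale, and bars mark the group means. The genotypes do not overlap in any gene shown. For genes taken from the 15 largest changes or from the most abundant genes this was fixed by the choice. In exa1-1, EXA1 was at 35.4 to 36.5 CPM and AT1G09640 at 441 to 446 CPM.

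The largest falls among genes chosen by the same rule follow. AT1G26390, of the berberine-bridge-like FAD-binding family, was at 7.15, 15.1 and 7.57 CPM in wild type and 0.487, 1.25 and 0.570 CPM in exa1-1 (log2 difference -3.65 ± 0.51, adjusted p = 7.62e-08). SAG13 (AT2G29350), a senescence-associated dehydrogenase gene also induced by pathogens, was at 11.6, 20.8 and 9.54 CPM in wild type and 0.973, 1.99 and 1.28 CPM in exa1-1 (log2 difference -3.27 ± 0.44, adjusted p = 3.41e-08). In both, wild type replicate 2 and exa1-1 replicate 2 were the highest of their groups. AT3G21330, a basic helix-loop-helix gene, was at 4.18, 4.27 and 6.94 CPM in wild type and 0.541, 0.881 and 0.998 CPM in exa1-1 (log2 difference -2.64 ± 0.33). AOX1D (AT1G32350), a mitochondrial alternative oxidase, was at 9.55, 7.91 and 3.57 CPM in wild type and 1.35, 1.21 and 1.52 CPM in exa1-1 (log2 difference -2.36 ± 0.44, adjusted p = 1.29e-05). ELI3-2 (AT4G37990), of the cinnamyl alcohol dehydrogenase family, fell from 24.5, 40.02 and 27.2 CPM to 7.52, 6.77 and 8.08 CPM (log2 difference -2.04 ± 0.23, adjusted p = 2.27e-09). ABCG40 (AT1G15520), a plasma membrane ABC transporter, fell from 17.7, 33.8 and 13.3 CPM to 3.84, 8.16 and 5.32 CPM (log2 difference -1.88 ± 0.50). AT5G62280 fell from 38.6, 40.7 and 39.4 CPM to 7.79, 11.5 and 9.17 CPM (log2 difference -2.05 ± 0.16). AT1G68620, AT4G04223, the peroxidase gene AT2G41480 and the aldolase gene FBA5 fell by 1.88 to 2.01. GSTU3, a glutathione transferase gene below the level set for that rule and chosen after its values were seen, had the lowest difference of all called genes: 3.55, 10.02 and 3.28 CPM in wild type and 0.0541, 0.139 and 0.0475 CPM in exa1-1 (log2 difference -5.997 ± 0.56).

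Most auxin genes that changed were lower in exa1-1. Of 25 Aux/IAA repressor genes listed 24 were tested, of which 0 rose and 12 fell (median -0.37). Of 21 SAUR genes, whose products promote cell expansion, 18 were tested, of which 0 rose and 14 fell (median -1.18). Of 9 GH3 genes, whose enzymes join auxin or jasmonate to amino acids, 8 were tested, of which 0 rose and 6 fell (median -0.85). Over all genes tested, 10.1% fell. No member of the 3 families was higher at an unadjusted p under 0.05 or by DESeq2, though without replicate 2 of wild type 1 Aux/IAA gene rose by edgeR.

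IAA2 (AT3G23030) was at 106, 114 and 116 CPM in wild type and 49.2, 53.6 and 50.6 CPM in exa1-1 (log2 difference -1.13 ± 0.05, adjusted p = 5.60e-12). IAA7 (AT3G23050) was at 195, 186 and 199.8 CPM in wild type and 96.5, 103 and 97.8 CPM in exa1-1 (log2 difference -0.96 ± 0.04, adjusted p = 5.60e-12). IAA19 (AT3G15540), tied to hypocotyl growth, was at 16.9, 17.1 and 21.5 CPM in wild type and 6.76, 8.72 and 5.75 CPM in exa1-1 (log2 difference -1.38 ± 0.21, adjusted p = 7.81e-08). IAA29 (AT4G32280), a target of phytochrome-interacting factors, was at 6.097, 4.27 and 7.66 CPM in wild type and 0.649, 1.34 and 1.33 CPM in exa1-1 (log2 difference -2.41 ± 0.40, adjusted p = 6.40e-07). In all 4 the lowest wild type library was above the highest exa1-1 library. The rules for the largest falls and for abundant genes, which IAA29 and IAA2 met, required this. Groups did not overlap at 33.3% of all genes tested and at 3744 of the 3920 called. ATAUX2-11 fell by 0.74 ± 0.05 and IAA16 fell by 0.43 ± 0.04, both without overlap. IAA6, chosen after its values were seen, had the largest difference of the family (-2.67 ± 0.14). Among those that did not pass, IAA31 was at 0.528, 0.623 and 0.530 CPM in wild type and 0.811, 1.02 and 0.713 CPM in exa1-1 (log2 difference 0.60 ± 0.15) and IAA5 differed by -0.95 ± 0.37.

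SAUR20 to SAUR24 form a cluster on chromosome 5. SAUR20 (AT5G18020) was at 0.864, 1.198 and 1.49 CPM in wild type and 0.216, 0.232 and 0.190 CPM in exa1-1 (log2 difference -2.44 ± 0.22, adjusted p = 0.000371). SAUR23 (AT5G18060) was at 1.68, 1.53 and 1.64 CPM in wild type and 0.487, 0.510 and 0.238 CPM in exa1-1 (log2 difference -1.97 ± 0.28, adjusted p = 0.000506). SAUR24 (AT5G18080) was at 1.25, 1.39 and 1.45 CPM in wild type and 0.433, 0.325 and 0.428 CPM in exa1-1 (log2 difference -1.78 ± 0.12, adjusted p = 0.000597). These levels were under 2 CPM in wild type, and the genotypes did not overlap. SAUR20 had 74 counts in all in wild type and 13 in exa1-1, and at such counts the SE can be too small. On chromosome 1, SAUR68 fell by 1.49 ± 0.18 and AT1G29460 fell by 1.86 ± 0.39. AT4G34770 fell from 14.9, 15.2 and 12.1 CPM to 8.598, 9.13 and 8.98 CPM (log2 difference -0.66 ± 0.11, adjusted p = 0.000234). Transcripts of 6 genes of the chromosome 5 cluster share exact runs of 30 to 86 bases, so reads of 1 gene may have been split or lost between neighbours. Among GH3 genes, GH3.3 (AT2G23170) was at 27.8, 38.1 and 33.8 CPM in wild type and 8.76, 11.5 and 8.603 CPM in exa1-1 (log2 difference -1.78 ± 0.19, adjusted p = 7.33e-09), and BRU6 (AT4G37390) was at 37.9, 43.8 and 38.6 CPM in wild type and 14.1, 14.1 and 12.2 CPM in exa1-1 (log2 difference -1.58 ± 0.09, adjusted p = 3.17e-09). WES1 fell by 1.01 ± 0.07, DFL1 fell by 0.83 ± 0.04, GH3.1 fell by 0.86 ± 0.18 and DFL2 fell by 0.37 ± 0.07.

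The promoters of IAA19 and SAUR20 are shown as examples of auxin genes that fell and whose windows hold a motif. Capitals mark the auxin response element TGTCTC, bound by auxin response factors, and the G-box CACGTG, bound by phytochrome-interacting factors and other basic helix-loop-helix and bZIP proteins, each sought on both strands in the 250 bases before the TAIR10.1 gene start.
IAA19 promoter, chr3:5263751-5264000, + strand: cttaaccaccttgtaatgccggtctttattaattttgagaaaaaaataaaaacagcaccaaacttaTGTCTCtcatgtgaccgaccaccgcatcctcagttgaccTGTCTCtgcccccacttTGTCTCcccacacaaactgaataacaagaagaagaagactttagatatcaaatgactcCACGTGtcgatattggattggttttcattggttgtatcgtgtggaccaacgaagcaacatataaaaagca
SAUR20 promoter, chr5:5966786-5967035, - strand: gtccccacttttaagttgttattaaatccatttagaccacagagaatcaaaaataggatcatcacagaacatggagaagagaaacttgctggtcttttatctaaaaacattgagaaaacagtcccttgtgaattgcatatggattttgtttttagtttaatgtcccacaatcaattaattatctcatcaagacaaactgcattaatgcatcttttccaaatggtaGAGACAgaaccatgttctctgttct
IAA19 holds TGTCTC beginning 184, 145 and 128 bases before the start and CACGTG beginning 70 bases before it. SAUR20 holds TGTCTC once, on the other strand, marked as GAGACA and beginning 25 bases before the start. The windows of IAA29 and IAA2, read in the same way, held neither TGTCTC nor CACGTG on either strand. TGTCTC was in 6 of 24 Aux/IAA windows (25%), 6 of 18 SAUR windows (33.3%) and 3 of 8 GH3 windows (37.5%), against 2204 of 20579 windows of tested genes (10.7%). The share was 10.5% among all genes that fell and 11.3% among those that rose, and among those changed by at least 1 log2 unit it was 10.9% of the 284 that fell and 15.8% of the 95 that rose. CACGTG was in 7.44% of all windows and in 9.15% of those of genes that fell and 6.80% of those that rose. A match describes the letters in the window and no binding was measured.

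**Figure D3:**
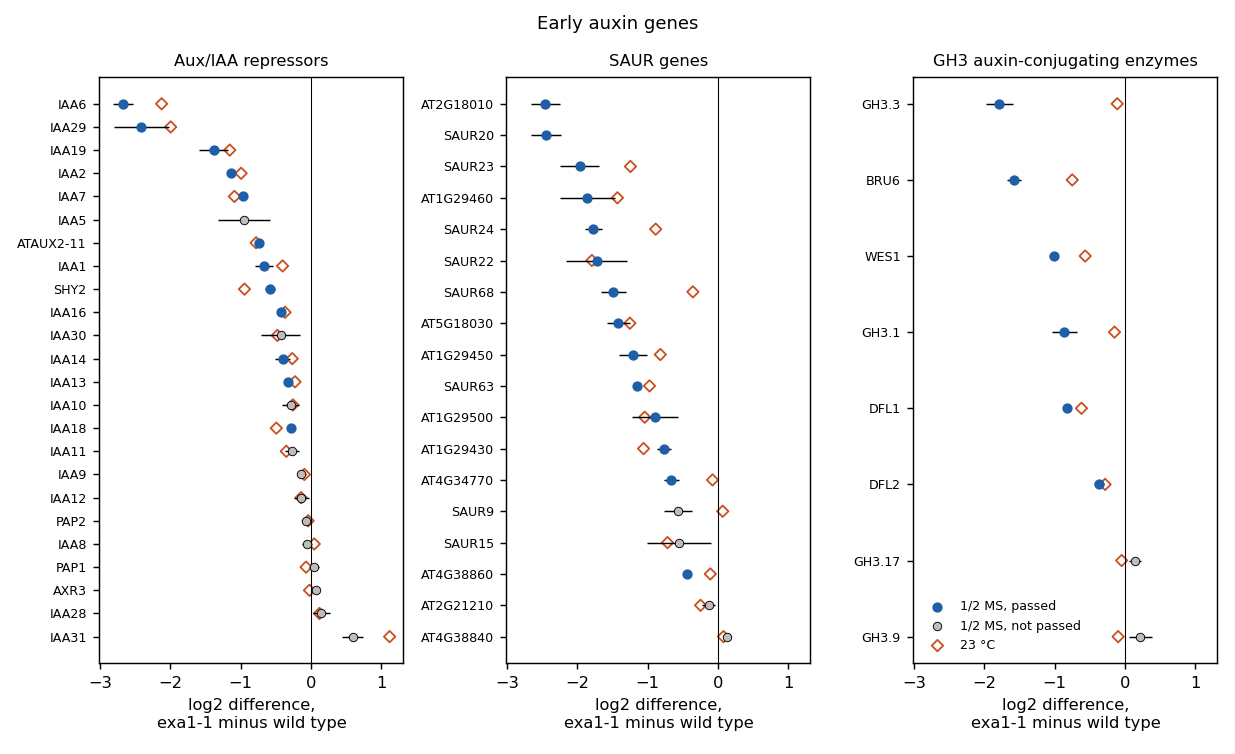
Each row is a tested member of the Aux/IAA (24), SAUR (18) or GH3 (8) family, placed by its log2 difference on 1/2 MS with its SE; filled blue points passed and grey points did not, and open diamonds give the same gene at 23 °C. On 1/2 MS all points that passed lie to the left of 0.

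Genes of auxin synthesis, transport and perception that passed were mostly lower. Of 28 tested, 1 rose and 11 fell (median -0.24), against 8.14% and 10.1% of all genes. With any 1 library left out, 9 or 10 fell. The YUCCA genes make auxin from its precursor: YUC8 was at 6.63, 6.33 and 8.72 CPM in wild type and 3.03, 3.62 and 2.95 CPM in exa1-1 (log2 difference -1.17 ± 0.17, adjusted p = 2.05e-05) and YUC5 fell by 1.39 ± 0.15. PIN proteins carry auxin out of cells: PIN7 (AT1G23080) was at 186, 165 and 173 CPM in wild type and 93.9, 104 and 102 CPM in exa1-1 (log2 difference -0.81 ± 0.07, adjusted p = 1.22e-09). PIN3 fell by 0.64 ± 0.09 and PIN4 fell by 0.46 ± 0.08. EIR1, also called PIN2 and expressed in the root tip, rose from 42.7, 37.04 and 38.5 CPM to 47.9, 50.4 and 48.4 CPM (log2 difference 0.31 ± 0.06, adjusted p = 0.0027), and without replicate 1 of wild type 2 genes of the list rose. IAGLU (AT4G15550), which joins glucose to auxin, was at 134, 125 and 112 CPM in wild type and 51.9, 57.9 and 51.00 CPM in exa1-1 (log2 difference -1.21 ± 0.09, adjusted p = 6.53e-11).

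Light signalling genes that passed were mostly lower. Of 21 tested, 10 fell and 4 rose (median -0.24), against 10.1% and 8.14% of all genes. Phytochrome-interacting factors drive growth in shade and darkness: PIF4 (AT2G43010) was at 12.2, 10.02 and 13.4 CPM in wild type and 5.08, 5.52 and 5.18 CPM in exa1-1 (log2 difference -1.17 ± 0.13, adjusted p = 1.22e-05). PIF3 fell by 0.73 ± 0.05 and PIL6, also called PIF5, fell by 0.68 ± 0.06. The shade-response homeobox gene HB-2 (AT4G16780) was at 16.4, 18.2 and 19.2 CPM in wild type and 6.33, 6.82 and 6.89 CPM in exa1-1 (log2 difference -1.42 ± 0.08, adjusted p = 3.65e-09), and HAT2 fell by 1.05 ± 0.08. HY5, the bZIP factor that acts in the light against elongation, rose from 9.55, 11.5 and 8.77 CPM to 18.5, 19.4 and 18.7 CPM (log2 difference 0.92 ± 0.12, adjusted p = 2.68e-06). PAR2 and PAR1, whose products restrain elongation in shade, were among the falls (-0.69 ± 0.16 and -0.45 ± 0.15), and PAR1 did not pass without 1 library in 5 of 6 cases. The other members that rose were SPA1, HYH and ELIP1, the last of which did not pass without 1 library in 4 of 6 cases.

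Other growth hormones and wall enzymes moved in both directions. Their counts stand against 8.14% of all genes tested that rose and 10.1% that fell. Of 16 brassinosteroid genes, 8 fell and 2 rose, and 5 to 7 fell with any 1 library left out, 5 without wild type 1 or 3 or exa1-1 2. The brassinosteroid-responsive gene BEE3 was at 23.1, 24.2 and 22.5 CPM in wild type and 10.7, 12.4 and 12.7 CPM in exa1-1 (log2 difference -0.96 ± 0.09, adjusted p = 4.14e-07), and CPD, a biosynthetic cytochrome P450, fell by 0.43 ± 0.08. ROT3 rose by 0.33 ± 0.09; DWF1 also rose but did not pass without 1 library in 5 of 6 cases. Of 19 gibberellin genes, 6 fell and 1 rose. The DELLA repressor gene GAI (AT1G14920) was at 70.1, 68.6 and 74.2 CPM in wild type and 38.6, 43.3 and 39.8 CPM in exa1-1 (log2 difference -0.81 ± 0.06, adjusted p = 3.65e-09), the response gene GASA6 fell by 1.33 ± 0.15 and the inactivating oxidase GA2OX6 fell by 0.89 ± 0.09. GA3OX1, which makes active gibberellin, rose by 0.57 ± 0.04.

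XTH enzymes cut and rejoin xyloglucan in the wall, and of 22 genes 9 fell and 5 rose. XTH15 (AT4G14130) was at 88.9, 76.3 and 82.9 CPM in wild type and 28.6, 32.04 and 29.2 CPM in exa1-1 (log2 difference -1.46 ± 0.08, adjusted p = 1.90e-10). TCH4 fell by 0.76 ± 0.06 and XTH24 fell by 0.58 ± 0.06, while XTH31 rose by 0.87 ± 0.10 and XTH14 by 0.67 ± 0.06. Expansins loosen walls, and of 15 genes 5 fell and 4 rose. Both lists stand against 10.1% of all genes that fell and 8.14% that rose. EXPA8 was at 9.22, 10.7 and 13.3 CPM in wild type and 4.11, 3.57 and 4.04 CPM in exa1-1 (log2 difference -1.51 ± 0.17, adjusted p = 4.84e-07) and EXPA11 fell by 0.67 ± 0.16. EXPB3 rose by 0.80 ± 0.09, EXPA14 by 0.89 ± 0.06, EXPB1 by 0.89 ± 0.15 and EXPA15 by 0.38 ± 0.05.

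Root hair genes that passed were all higher. Of 23 tested, 12 rose and 0 fell by edgeR (0 lower at an unadjusted p under 0.05 or by DESeq2; median 0.37), against 8.14% and 10.1% of all genes, and 10 or 11 rose with any 1 library left out. Extensins are wall glycoproteins of the growing hair: EXT10 (AT5G06640) was at 16.04, 13.7 and 15.7 CPM in wild type and 32.8, 24.3 and 27.7 CPM in exa1-1 (log2 difference 0.90 ± 0.14, adjusted p = 3.81e-06). EXT6 was at 28.6, 26.1 and 24.96 CPM in wild type and 55.5, 39.8 and 45.8 CPM in exa1-1 (log2 difference 0.82 ± 0.15, adjusted p = 4.17e-06). EXT13 rose by 0.73 ± 0.12, AT3G28550 by 0.65 ± 0.18, the peroxidase gene RHS19 by 0.60 ± 0.11 and PRP3, a wall protein of root hairs, by 0.61 ± 0.15. Exact runs of 31 to 101 bases are shared among 5 extensin transcripts. The summed level of the 23 genes was 622, 589 and 593 CPM in wild type and 926, 737 and 865 CPM in exa1-1. Of the 15 root markers, 2 rose (RWP1, 0.49 ± 0.08; CASP2, 0.39 ± 0.04) and 2 fell (TIP2;2, -0.58 ± 0.10; TIP2;3, -0.93 ± 0.06), and their part in the root hair result was not tested.

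Cytokinin genes that passed were mostly higher. Of 21 tested, 10 rose and 2 fell (median 0.38), against 8.14% and 10.1% of all genes. CYP735A2, which makes trans-zeatin-type cytokinins, mainly in roots, was at 18.1, 19.8 and 20.1 CPM in wild type and 35.4, 35.6 and 34.8 CPM in exa1-1 (log2 difference 0.87 ± 0.05, adjusted p = 1.04e-08). The degrading enzyme CKX4 was at 6.87, 7.52 and 7.61 CPM in wild type and 13.2, 15.8 and 13.1 CPM in exa1-1 (log2 difference 0.94 ± 0.10, adjusted p = 2.39e-06), and the isopentenyltransferase IPT3 rose by 0.40 ± 0.03. Response regulator RR3 rose by 0.45 ± 0.03 and the receptor gene WOL by 0.43 ± 0.09. The falls were CKX6 (-0.50 ± 0.02) and HK3 (-0.15 ± 0.06); HK3 did not pass without 1 library in 4 of 6 cases.

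Genes of the salicylic acid and immune signalling list that passed were mostly lower in exa1-1. Of 33 tested, 19 fell and 1 rose (median -0.55), against 10.1% and 8.14% of all genes. Receptor gene FLS2 (AT5G46330), which senses bacterial flagellin, was at 83.4, 72.6 and 74.9 CPM in wild type and 45.6, 49.5 and 51.2 CPM in exa1-1 (log2 difference -0.66 ± 0.08, adjusted p = 4.86e-08). Its downstream kinase gene FRK1 was at 2.400, 3.88 and 2.22 CPM in wild type and 0.595, 0.742 and 0.665 CPM in exa1-1 (log2 difference -2.07 ± 0.26, adjusted p = 4.15e-06). Transcription factor gene WRKY70 (AT3G56400) was at 35.9, 52.5 and 36.8 CPM in wild type and 16.98, 24.8 and 16.97 CPM in exa1-1 (log2 difference -1.09 ± 0.25, adjusted p = 5.84e-06), and WRKY40 fell by 0.71 ± 0.13. Camalexin is the main antifungal indole of Arabidopsis: its last enzyme, PAD3, was at 42.2, 60.7 and 30.8 CPM in wild type and 17.5, 21.5 and 18.8 CPM in exa1-1 (log2 difference -1.21 ± 0.29, adjusted p = 7.43e-06), and the related P450 gene CYP71A12 was at 9.51, 15.1 and 4.82 CPM in wild type and 2.76, 2.36 and 2.804 CPM in exa1-1 (log2 difference -1.895 ± 0.48).

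The classic markers of the salicylic acid response did not move as one. PR1 (AT2G14610) was at 50.8, 78.1 and 37.3 CPM in wild type and 10.2, 34.2 and 15.6 CPM in exa1-1 (log2 difference -1.45 ± 0.60, adjusted p = 0.000756); the groups came close, with exa1-1 replicate 2 just under wild type replicate 3, and without that exa1-1 library the difference was -2.09. BGL2, also called PR2, was at 3.98, 6.81 and 2.75 CPM in wild type and 0.703, 1.16 and 0.951 CPM in exa1-1 (log2 difference -2.24 ± 0.42, adjusted p = 0.00012). PR5, a thaumatin-like gene, was the single member that rose, at 7.49, 6.997 and 5.01 CPM in wild type and 14.4, 10.9 and 16.9 CPM in exa1-1 (log2 difference 1.11 ± 0.25, adjusted p = 1.80e-05). Wild type replicate 2 was the highest wild type library for PR1, BGL2, WRKY70 and PAD3. With any 1 library left out, between 16 and 20 members of the list fell. NLR genes encode intracellular immune receptors: of 20, 9 fell and 2 rose (median -0.20), against 10.1% and 8.14% of all genes. RPS2 (AT4G26090) was at 15.7, 15.8 and 13.9 CPM in wild type and 6.71, 8.95 and 8.41 CPM in exa1-1 (log2 difference -0.91 ± 0.14, adjusted p = 2.99e-06), ZAR1 fell by 0.43 ± 0.06, RPP8 fell by 0.42 ± 0.04 and SNC1 fell by 0.39 ± 0.07. The 2 that rose were DAR4 (0.25 ± 0.07) and ADR1 (0.27 ± 0.06).

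Jasmonate genes split. Of 28 tested, 11 fell and 4 rose (median -0.17), against 10.1% and 8.14% of all genes. JAZ1, a repressor induced by the hormone, was at 106, 117 and 109 CPM in wild type and 67.9, 60.3 and 68.8 CPM in exa1-1 (log2 difference -0.75 ± 0.07, adjusted p = 2.16e-09). JAZ10 fell by 0.80 ± 0.07. Among enzymes that break down active jasmonate, CYP94B3 fell by 1.28 ± 0.11 and CYP94C1 fell by 0.81 ± 0.08. TAT3, a wound-induced aminotransferase gene, was at 3.41, 5.61 and 4.39 CPM in wild type and 0.379, 0.881 and 0.665 CPM in exa1-1 (log2 difference -2.76 ± 0.37, adjusted p = 9.10e-08). Besides CORI3 the rises were in biosynthetic genes: AOC2 (0.54 ± 0.11), AOC1 (0.49 ± 0.06) and LOX2 (0.56 ± 0.19). Other biosynthetic genes, AOS and LOX3, fell. AOS did not pass without wild type 2 or 3 or exa1-1 1 (-0.15 to -0.18 in those fits). LOX3 did not pass without wild type 1 or 3 or exa1-1 2 (-0.28 to -0.50), or with the 6 libraries alone.

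Ethylene genes that passed were mostly lower. Of 30 tested, 16 fell and 2 rose (median -0.35), against 10.1% and 8.14% of all genes. ACS8, which makes the ethylene precursor, was at 3.79, 4.84 and 7.32 CPM in wild type and 1.46, 1.02 and 1.47 CPM in exa1-1 (log2 difference -2.02 ± 0.32, adjusted p = 2.48e-06). EFE, which forms ethylene from it, fell from 751, 733 and 673 CPM to 477, 520.2 and 479 CPM (log2 difference -0.55 ± 0.06, adjusted p = 2.48e-06). Receptor gene ERS1 fell by 0.49 ± 0.04, the F-box gene EBF2 fell by 0.71 ± 0.09, the transcription factor gene EIL1 fell by 0.34 ± 0.03 and ERF2 fell by 1.05 ± 0.11. ACO1 and EIN4 rose, by 0.41 ± 0.05 and 0.29 ± 0.07.

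**Figure D4:**
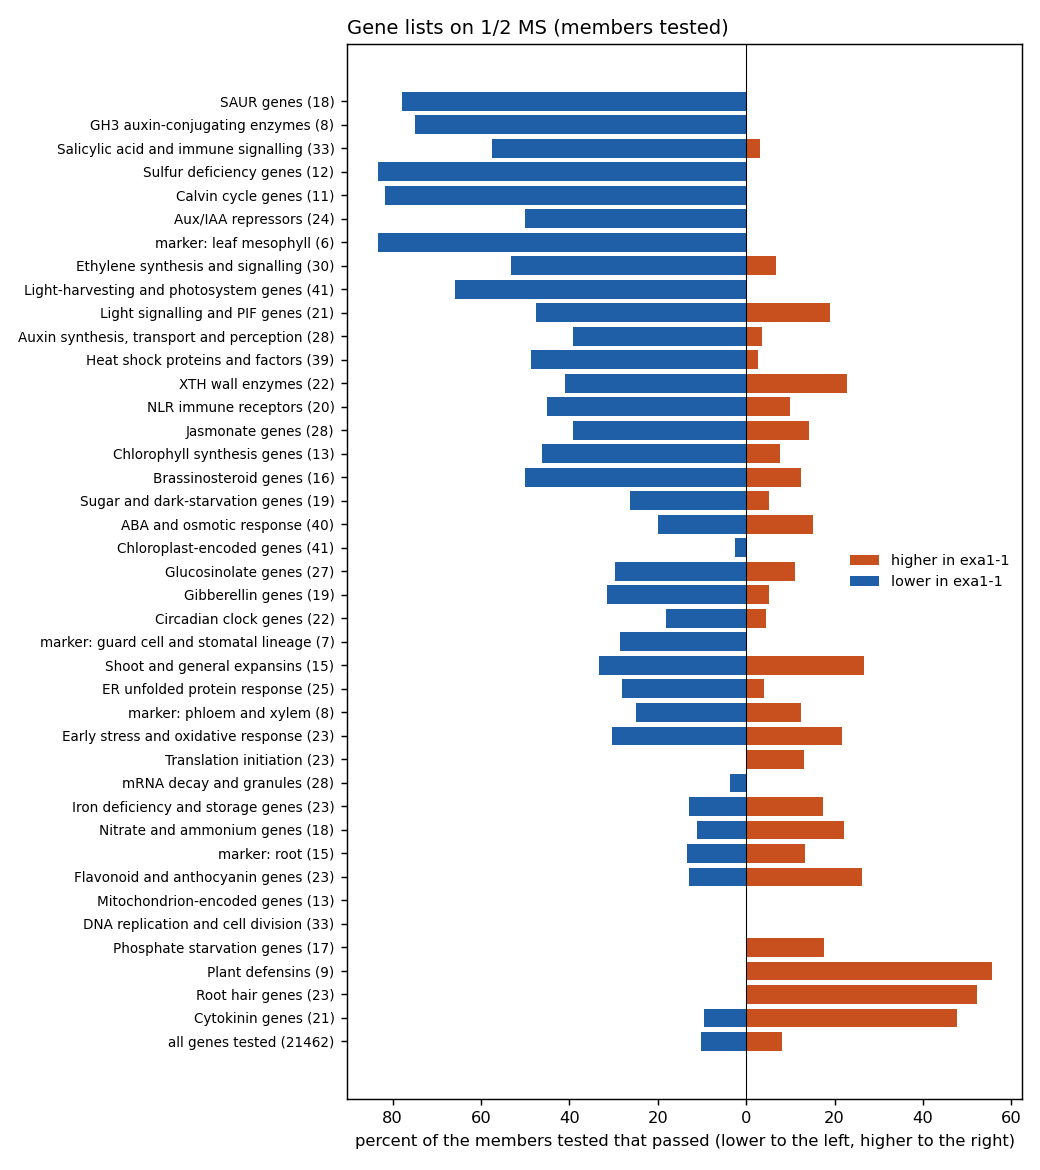
Bars give, for each gene list shown, the percentage of tested members that rose (orange, right) and fell (blue, left) in exa1-1 on 1/2 MS. The lists of EXA1 homologues, ribosomal proteins, seed storage markers and shoot meristem markers are left out. Lists are ordered by median log2 difference and the number tested is in parentheses. The bottom bar gives all 21462 genes, of which 8.14% rose and 10.1% fell.

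Nuclear photosynthesis genes that passed were all lower. Among all genes tested, 10.1% fell and 8.14% rose. Of 41 light-harvesting and photosystem genes, 27 fell and 0 rose (1 was higher at an unadjusted p under 0.05 and 0 by DESeq2; median -0.26), and 20 to 26 fell with any 1 library left out. Of 11 Calvin cycle genes, 9 fell and 0 rose (0 higher by either measure; median -0.43). In whole seedlings, fewer cells of a type and less RNA per cell cannot be told apart. The 6 mesophyll markers, which overlap these lists, summed to 6975, 7055 and 6132 CPM in wild type and 5333, 5532 and 5512 CPM in exa1-1. Of these markers 5 fell, and the part of leaf tissue in these results was not tested.

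LHB1B1 (AT2G34430), an antenna protein of photosystem II, was at 197, 156 and 181 CPM in wild type and 82.1, 76.6 and 81.7 CPM in exa1-1 (log2 difference -1.15 ± 0.10, adjusted p = 4.68e-06). LHCB3 was at 93.5, 76.01 and 88.5 CPM in wild type and 45.05, 54.2 and 49.8 CPM in exa1-1 (log2 difference -0.79 ± 0.12, adjusted p = 1.12e-06), and CAB1, the most highly counted of the family, fell from 4988, 4252 and 4512 CPM to 3093, 3422 and 3208 CPM (log2 difference -0.50 ± 0.08). CAB3 fell by 0.74 ± 0.06, LHB1B2 fell by 0.91 ± 0.12 and NPQ4, needed for heat dissipation of light, fell by 0.39 ± 0.04. Rubisco small subunit gene RBCS2B (AT5G38420) was at 394, 426 and 382 CPM in wild type and 216, 233 and 223 CPM in exa1-1 (log2 difference -0.84 ± 0.06, adjusted p = 1.19e-09), RBCS1B fell by 0.87 ± 0.08 and RBCS3B fell by 0.45 ± 0.04. PRK (AT1G32060), phosphoribulokinase, was at 144, 141 and 129.8 CPM in wild type and 80.6, 87.1 and 76.5 CPM in exa1-1 (log2 difference -0.76 ± 0.07, adjusted p = 1.15e-08). RCA, rubisco activase, fell by 0.64 ± 0.05 and GAPA fell by 0.43 ± 0.06. Carbonic anhydrase gene CA2 (AT5G14740) was at 367, 394 and 337 CPM in wild type and 134, 147 and 137 CPM in exa1-1 (log2 difference -1.39 ± 0.08, adjusted p = 3.72e-10). Exact runs of 35 to 122 bases are shared among 5 CAB transcripts and of 44 to 233 bases among 4 small subunit transcripts, so the split of reads within each family is uncertain.

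Of 13 chlorophyll synthesis genes, 6 fell and 1 rose (46.2% and 7.69%, against 10.1% and 8.14% of all genes). PORB fell by 0.44 ± 0.05, GUN4 fell by 0.47 ± 0.06 and HEMA1 fell by 0.31 ± 0.07. The rise, in GLK2, a transcription factor gene of chloroplast development (0.22 ± 0.06), was lost without any of 5 of the 6 libraries. Of 41 tested genes of the chloroplast genome 1 fell (2.44%, against 10.1% of all genes). It was rpl16 (-0.84 ± 0.24), which did not pass without replicate 1 of either genotype. In the same list 2 rose without replicate 1 of wild type. Of 13 mitochondrial genes 0 changed by edgeR or DESeq2, 2 were higher at an unadjusted p under 0.05, and 1 rose without replicate 1 of wild type. Of 7 guard cell markers 2 fell (28.6%, against 10.1% of all genes), or 1 with a library left out in 5 of 6 cases. The channel gene KAT1 was at 17.6, 16.6 and 17.4 CPM in wild type and 9.19, 9.18 and 9.41 CPM in exa1-1 (log2 difference -0.89 ± 0.03, adjusted p = 2.82e-06). Of 8 phloem and xylem markers 1 rose and 2 fell, against 8.14% and 10.1% of all genes. With any 1 library left out 0 or 1 of these 8 rose and 1 to 3 fell. Of 2 shoot meristem markers tested 0 changed by edgeR or DESeq2 (1 lower at an unadjusted p under 0.05).

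Sulfur deficiency genes that passed were all lower on 1/2 MS. Over all genes tested there, 10.1% fell and 8.14% rose. Of 12 tested, 10 fell and 0 rose (0 higher at an unadjusted p under 0.05 or by DESeq2; median -0.45). Reductases of the APR group carry the controlled step of sulfate assimilation: APR2 (AT1G62180) was at 130.4, 155 and 143 CPM in wild type and 102, 99.6 and 95.7 CPM in exa1-1 (log2 difference -0.53 ± 0.08, adjusted p = 1.67e-06), APR3 fell by 0.47 ± 0.05 and APR1 fell by 0.37 ± 0.06. LSU1, induced by low sulfur, was at 2.69, 2.88 and 2.51 CPM in wild type and 0.595, 0.835 and 0.760 CPM in exa1-1 (log2 difference -1.86 ± 0.14, adjusted p = 3.54e-06), and ATSDI1 fell by 1.24 ± 0.16. Of 27 genes for glucosinolates, the sulfur-rich defence compounds, 8 fell and 3 rose; 5 fell without wild type 2 or exa1-1 2 or 3. CYP79F1, which starts aliphatic glucosinolates, fell by 0.77 ± 0.15 and MYB51 fell by 0.47 ± 0.14, while the myrosinase genes TGG1 and TGG2 rose by 0.33 ± 0.03 and 0.21 ± 0.05.

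Nitrogen and iron genes that passed went both ways. Of 18 nitrate and ammonium genes tested, 4 rose and 2 fell (median 0.04), against 8.14% and 10.1% of all genes. NRT2:1 (AT1G08090), the high-affinity nitrate transporter, was at 42.3, 40.5 and 47.9 CPM in wild type and 89.2, 75.1 and 92.3 CPM in exa1-1 (log2 difference 0.97 ± 0.12, adjusted p = 9.72e-09). HRS1, a nitrate-responsive transcription factor gene, rose by 0.74 ± 0.13, the ammonium transporter gene AMT1;2 by 0.53 ± 0.07 and the nitrate transport component WR3 by 0.27 ± 0.08. The falls were NIA1 and LBD37. NIA1 did not pass once wild type 1 was left out and LBD37 without 1 library in 4 of 6 cases. Of 23 iron genes 4 rose and 3 fell: the iron uptake regulator FRU rose by 0.77 ± 0.23 and NAS1 by 0.74 ± 0.20, and the ferritin FER1 fell by 0.69 ± 0.08. NAS2, FSD1 and bHLH39 did not pass without 1 library in 4 of 6 cases, nor FRO3 without wild type 1. Of 17 phosphate genes 3 rose, PAP17 (0.44 ± 0.10), PHT1;1 and PHT1;4, and 0 fell (1 lower at an unadjusted p under 0.05, 0 by DESeq2, and 1 fell without exa1-1 1). Of the list, 1 member rose without replicate 3 of either genotype.

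Flavonoid genes that passed went both ways: 26.1% of those tested rose and 13.0% fell, against 8.14% and 10.1% of all genes. FLS1 (AT5G08640), flavonol synthase, was at 24.7, 18.5 and 21.1 CPM in wild type and 39.7, 43.3 and 45.8 CPM in exa1-1 (log2 difference 1.01 ± 0.13, adjusted p = 2.47e-08). Chalcone synthase gene TT4 was at 99.7, 67.95 and 78.9 CPM in wild type and 138, 137 and 140.4 CPM in exa1-1 (log2 difference 0.75 ± 0.16, adjusted p = 2.80e-06). F3H rose by 0.67 ± 0.07, UGT78D2 by 0.68 ± 0.09 and TT5 by 0.62 ± 0.15. Of 23 tested 6 rose and 3 fell, the falls being the anthocyanin regulators MYB90, TT8 and MYBL2. MYB90 was at 0.432, 0.431 and 0.530 CPM in wild type and 0, 0.0464 and 0.0475 CPM in exa1-1; TT8 and MYBL2 did not pass without 1 library in 4 of 6 cases, and 1 fall was left without replicate 1 of either genotype or replicate 3 of exa1-1.

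Heat shock genes that passed were mostly lower, in seedlings given no heat. For comparison, 10.1% of all genes tested fell and 8.14% rose. Of 39 tested, 19 fell and 1 rose (median -0.23); the rise, HSF1, did not pass without 1 library in 3 of 6 cases. HSFA2 (AT2G26150), a heat-induced activator, was at 20.02, 19.3 and 20.1 CPM in wild type and 10.5, 8.81 and 9.13 CPM in exa1-1 (log2 difference -1.07 ± 0.08, adjusted p = 2.19e-08). Small heat shock gene AT2G29500 was at 9.94, 10.6 and 9.49 CPM in wild type and 5.52, 3.71 and 4.18 CPM in exa1-1 (log2 difference -1.17 ± 0.17, adjusted p = 1.91e-06), and AT1G07400 fell by 0.83 ± 0.04. HSP70 fell by 0.35 ± 0.02, Hsp70-2 fell by 0.56 ± 0.06 and HSP90.1 fell by 0.38 ± 0.04. In the endoplasmic reticulum list, 7 of 25 fell and 1 rose. BIP3, a chaperone gene induced by unfolded proteins, was at 2.64, 3.07 and 2.51 CPM in wild type and 0.324, 0.556 and 0.238 CPM in exa1-1 (log2 difference -2.84 ± 0.29, adjusted p = 1.46e-06), and ATERDJ3A fell by 0.69 ± 0.07. PDIL1-1 was the rise, and it did not pass without wild type 1 or exa1-1 2; without replicate 2 of wild type 2 members rose.

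Abscisic acid and oxidative stress genes went both ways. For comparison, 8.14% of all genes tested rose and 10.1% fell. These shares were 15% and 20% in the abscisic acid and osmotic list and 4.55% and 18.2% in the clock list. Of 40 abscisic acid and osmotic genes, 6 rose and 8 fell; 4 fell without replicate 3 of wild type and 5 without replicate 1 or 3 of exa1-1. Beside COR15A, RD22 rose by 0.47 ± 0.11 and LEA14 by 0.38 ± 0.02, and the signalling phosphatase ABI1 fell by 0.50 ± 0.04. Of 23 oxidative and early stress genes, 5 rose and 7 fell, and 3 rose without wild type 3 or exa1-1 1 or 3. The superoxide dismutases CSD1 and CSD2 rose by 0.52 ± 0.02 and 0.48 ± 0.05, and the calmodulin-like gene TCH3 fell by 0.49 ± 0.07. Of 19 sugar and dark-starvation genes 5 fell and 1 rose: DIN2 fell by 1.66 ± 0.21 and ASN1, asparagine synthase, fell by 0.94 ± 0.23. The rise, BAM5, came from under 0.5 CPM in every library and was lost without wild type 1 or exa1-1 2; without replicate 2 of wild type 2 members rose. Of 22 clock genes 4 fell and 1 rose: PRR7 fell by 0.51 ± 0.08 and ELF4 rose by 0.42 ± 0.06, and 7 fell without replicate 2 of wild type.

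Genes of translation initiation and mRNA decay are given because EXA1 binds cap-binding factors. Of 23 translation initiation genes 3 rose and 0 fell (1 was lower at an unadjusted p under 0.05 and 0 by DESeq2; median -0.0016), against 8.14% and 10.1% of all genes. PAB8 rose by 0.14 ± 0.01, ABH1 by 0.18 ± 0.05 and PAB4 by 0.14 ± 0.02, and with any 1 library left out 0 to 2 members rose. Of 28 mRNA decay and granule genes 1 fell, the deadenylase gene CAF1a (log2 difference -0.57 ± 0.12, adjusted p = 4.72e-05), and 0 rose, though 1 was higher by DESeq2 and 3 at an unadjusted p under 0.05. Without replicate 1 of wild type 3 rose, without replicate 2 of exa1-1 1 rose, and 2 fell without wild type 2 or exa1-1 1 or 2. Of 33 DNA replication and cell division genes 0 passed by edgeR or DESeq2 in either direction (median 0.09), 3 were higher at an unadjusted p under 0.05, and 0 passed by edgeR with any 1 library left out.

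A second comparison of the same genotypes could be set beside this one, in 6 other libraries from seedlings kept at 23 °C for 60 min as the control of a heat experiment. There 4077 of 20972 genes differed (19.4%), 1735 higher and 2342 lower in exa1-1, 8.27% and 11.2% of those tested, or 2730 and 1575 when libraries were scaled by total counts alone and 2611 and 1549 by limma on FPKM values. Without replicate 1 of wild type 2482 differed there, and without replicate 3 of wild type 2525. Of the 3920 genes called on 1/2 MS, 3834 were tested at 23 °C, and 1455 were called there in the same direction. These made up 37.9% of those 3834 and 35.7% of the 4077 called at 23 °C. The sign was the same for 84.2% of them, against 65.8% of the 20628 genes tested in both sets, and 75 were called in opposite directions. Tested directly, the genotype difference itself differed between the sets at 745 of 21262 genes (3.5%), higher on 1/2 MS at 308 (1.45%) and lower at 437 (2.06%), among them 345 of those called on 1/2 MS. With any 1 library left out that count lay between 281 (without replicate 3 of wild type at 23 °C) and 919 (without replicate 2 of wild type at 23 °C). It was also 369 without replicate 1 of wild type at 23 °C, 441 and 445 without replicates 1 and 3 of wild type on 1/2 MS, and 479, 440 and 344 without replicates 1, 2 and 3 of exa1-1 on 1/2 MS.

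EXA1 differed by -2.12 ± 0.05 at 23 °C (difference between sets 0.31, adjusted p = 0.0466). Of 9 defensin genes tested at 23 °C, 4 rose and 2 fell. The rises were in PDF1.2, PDF1.2b, PDF1.2c and PDF1.3 and the falls in PDF2.1 (-0.53 ± 0.21) and LCR69 (-0.27 ± 0.05). PDF1.2 differed by 4.57 ± 0.52 (adjusted p = 9.28e-07) and PDF1.3 by 5.02 ± 0.46, and the differences between sets did not pass. TZP differed by 1.42 ± 0.07, CORI3 by 2.27 ± 0.28, AT1G09640 by 0.95 ± 0.04 and AT1G73600 by 1.74 ± 0.40, each called. Of 23 root hair genes 16 rose at 23 °C and 0 fell, and of 23 Aux/IAA genes 10 fell and 0 rose. Of 17 SAUR genes 6 fell at 23 °C and 0 rose.

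Other genes differed between the sets by the direct test, whose values come from a fit of its own. Of 12 sulfur genes 2 rose and 2 fell at 23 °C (median 0.17). By the direct test, 6 had a lower difference on 1/2 MS and 1 a higher one. APR3 differed by -0.47 ± 0.05 on 1/2 MS and 0.43 ± 0.11 at 23 °C (difference -0.92, adjusted p = 0.000228). Of 25 endoplasmic reticulum genes 16 rose and 3 fell at 23 °C, and 14 were lower on 1/2 MS by the direct test. CNX1, calnexin, differed by -0.20 ± 0.04 and 0.34 ± 0.04 (difference -0.56, adjusted p = 0.000478). NRT2:1 was higher in exa1-1 on 1/2 MS (0.97 ± 0.12) and lower at 23 °C (-0.80 ± 0.28; difference 1.76, adjusted p = 0.000228). GH3.3 differed by -1.78 ± 0.19 and -0.11 ± 0.14 (difference -1.69, adjusted p = 0.000252). Of 39 heat shock genes 8 rose and 7 fell at 23 °C.

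At 23 °C, 10 of 33 salicylic acid and immune genes fell and 2 rose. PR1 differed by 0.57 ± 0.67 there (adjusted p = 0.333; difference between sets -2.04, adjusted p = 0.0668). PAD3 fell on 1/2 MS and differed by -1.43 ± 0.34 at 23 °C. The light-harvesting list held 16 falls of 41 at 23 °C and the Calvin cycle list 1 of 11. CA2 differed by -1.39 ± 0.08 on 1/2 MS and -0.55 ± 0.09 at 23 °C (difference -0.87, adjusted p = 0.000228), and XPL1 by -1.200 ± 0.04 and -0.41 ± 0.11 (difference -0.81, adjusted p = 0.000309).

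**Figure D5:**
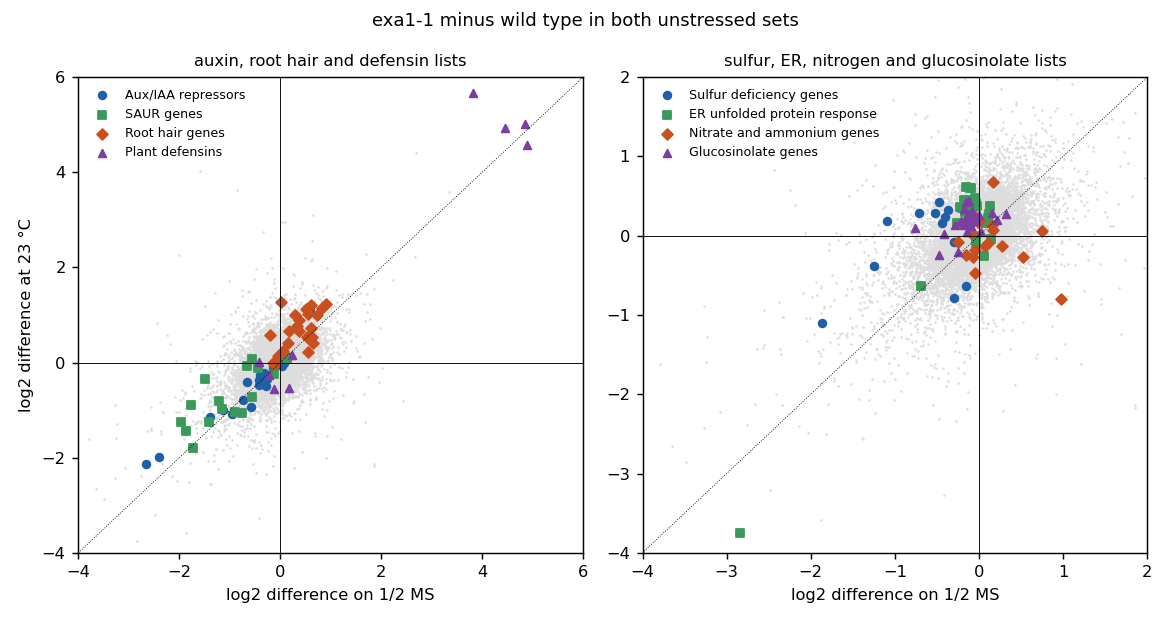
Each point is a gene placed by its log2 difference, exa1-1 minus wild type, on 1/2 MS (horizontal) and at 23 °C (vertical); grey points are all genes tested in both and the dotted line marks equal differences. Left, 4 defensins stand at the upper right and Aux/IAA and SAUR genes at the lower left, and right, APR3 lies left of the line (-0.47 against 0.43) and NRT2:1 to its lower right (0.97 against -0.80).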

How the data were processed

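The authors deposited whole-number read counts per gene and FPKM values (fragment counts scaled to gene length and library size) for 24 libraries of strand-specific paired-end mRNA sequencing. Per the submitters' processing notes, HISAT2 2.0.4, HTSeq 0.6.1p1 and the TAIR10 build were used; no source used here gives the strand setting of the counting. Counts were the base of the tests and FPKM values served for ranking by abundance and as an alternative. The 6 libraries held 17658196 to 20690628 counts, which limits the precision of genes at a few counts.

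Genes were kept by edgeR's filterByExpr, scaled by TMM and tested with edgeR 4.0.16's quasi-likelihood F test in R 4.3.3, in a fit of the 12 libraries of the salt series, which share 1 estimate of the spread. P-values were adjusted by Benjamini-Hochberg over all genes, with 0.05 as the threshold. SE values come from log2 CPM with a prior count of 2, with n = 3 a group. The log2 differences come from the edgeR fit, so at few counts an SE can be too small for its difference. The 23 °C comparison was fitted in the 12 libraries of the heat series. The difference between both comparisons was tested as an interaction in the 12 unstressed libraries. Floors are 3 counts over a group and cover counting error only.

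Alternatives were DESeq2 1.42.0, total-count scaling, no filter and a mean of at least 1 CPM, limma 3.58.1 on log2(FPKM + 1) or log2(FPKM + 0.1), which understates changes of low genes, a replicate block, the 6 libraries alone, and each library left out. On simulated data of this comparison, a single draw on 21462 genes, 52 of 67 genes changed 1.5-fold, 61 of 67 changed 2-fold and 64 of 66 changed 4-fold were called. So were 13 of 21262 unchanged genes. The simulation changed far fewer genes than the 3920 called in the data and gave salt and control libraries the same means. Its rates may therefore not carry over to the data.

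The comparison, the gene lists and the alternatives were chosen with earlier results of these data known. The 44 lists held 1150 places, of which 883 passed the filter. A list's count is therefore of tested members. Ribosomal proteins were found by description for 19 genes alone, of which 14 were tested and 2 rose, and are not described further. Named genes were EXA1 and its homologues, genes within 25 kb of EXA1 and up to 6 members of a list by adjusted p. The 15 largest changes each way were taken among genes whose groups did not overlap and whose mean log2 CPM reached 1. Up to 10 most abundant genes each way were taken among those changed by at least 1 log2 unit without overlap. Up to 5 genes each way at 0 in a genotype and up to 5 long noncoding RNAs each way were added. Other genes named were chosen after their values were seen, among them list members that did not pass, lost a call, or are given as the rest of a count. Of 32833 gene IDs, 32548 matched RefSeq's TAIR10.1 annotation, which gave symbols, coordinates and promoters. No library was a copy of another: chi-square per gene was 1.59 to 4.87 within a genotype and 10.5 to 12.5 between genotypes.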

Additional observations from a re-analysis of the deposited data

Results flagged for a closer look

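The genotype difference itself differed between 1/2 MS and 23 °C at 745 genes by edgeR's interaction test, and 47 of the genes named were among them. Values here are the log2 difference on 1/2 MS minus that at 23 °C.

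EXA1 (AT5G42950) had a value of 0.31, its fall being smaller on 1/2 MS. Among GH3 genes, values were -1.69 for GH3.3, -0.84 for BRU6 and -0.47 for WES1, and the auxin glucosyltransferase gene IAGLU had -0.77. Negative values were also found for HB-2 of the light signalling list (-0.79), GASA6 of the gibberellin list (-0.63), EBF2 of the ethylene list (-0.39), the expansin gene EXPA15 (-0.50), the root hair gene PRP3 (-0.62), the guard cell marker KAT1 (-0.65) and AT5G62280 (-0.74), which is in no list. The values of ACS8 (2.62) and CYP735A2 (0.82) were positive. ACS8 fell in both sets, by -2.02 on 1/2 MS and -4.61 at 23 °C. It had only 2, 1 and 1 counts in exa1-1 at 23 °C, so the size of its value is uncertain.

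Over the full lists, 1 sulfur gene was higher on 1/2 MS by this test and 6 lower. In the nitrate and ammonium list 4 were higher and 1 lower. The sulfur and glucosinolate genes among the 47 had negative values: APR3 -0.92, APR2 -0.83, APR1 -0.71, AT1G04770 -0.61, CYP79F1 -0.88 and BCAT4 -0.44. The nitrogen and iron genes among them had positive ones: NRT2:1 1.76, AMT1;2 0.77, HRS1 0.66, FRU 1.11 and NAS2 1.41. The tonoplast aquaporin genes TIP2;2 and TIP2;3 had 0.51 and 1.01.

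The NLR and jasmonate genes among the 47 had negative values: RPS2 -0.76, AT1G58602 -0.79, RPP8 -0.32, CYP94B3 -1.28 and JAZ10 -0.94. So had genes of protein folding, CNX1 -0.56, PDIL1-2 -0.65, PDIL2-2 -0.61 and AT5G07340 -0.45, and the metabolic and signalling genes XPL1 -0.81, CA2 -0.87, FBA5 -1.27, AT2G41480 -1.23, TT4 -0.68 and ABI1 -0.42. CSD1 had 0.42, AT5G46900 1.48 and AT3G45160 0.80. The noncoding RNA genes AT2G08665 and AT1G53233 had -0.86 and -1.71. The 2 sets were grown for separate experiments, so medium handling and temperature cannot be told apart.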

How the results depend on the processing

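Under 9 alternatives other than leaving out a library, the count of genes differing on 1/2 MS stayed within 1.5 times 3920, and the share lower stayed between 52.5% and 59.3% over all settings. With any 1 library left out, 2689 to 3328 genes differed, 1111 to 1430 higher and 1578 to 1972 lower. At 23 °C that range was 2482 to 3670 genes, and for the difference between sets 281 to 919, against 382 by limma on FPKM + 1 without a filter. The cause was not tested. Scaling turned the balance at 23 °C: 57.4% of called genes were lower with TMM, 36.6% with total counts, and 37.2% by limma on FPKM + 1, and the median difference of all genes there was 0.0049, 0.0698 and 0.0572 in that order. For the difference between sets it was -0.0241, -0.0662 and -0.0534. Of 260 single-gene results, 226 kept their direction and side of the threshold under every alternative run, 143 of 3882 values lost the call, and none turned its direction. Correlations of the deviations of same-numbered libraries were 0.0925, 0.0734 and 0.00582, under the 0.1 set for treating numbers as pairs, and replicate 3 of either genotype did not correlate best with its own number. Principal component 2 (15.6% of the variance) nevertheless ordered both genotypes by number alike, with scores of 20.4, -17.1 and -0.154 in wild type and 12.6, -17.7 and 1.96 in exa1-1, a hint from the data that the design does not state. With the replicate block, 1626 genes were higher and 2084 lower on 1/2 MS (3710 in all), 4022 differed at 23 °C and 866 between sets. Depth limits genes under about 1 CPM, where 1 library can move a value.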

Other observations

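Of 598 long noncoding RNA genes 17 rose and 18 fell, and the 2 with the highest levels among those named are given here. AT2G08665, on the plus strand of chromosome 2, was at 19.8, 13.4 and 16.5 CPM in wild type and 8.44, 7.14 and 7.46 CPM in exa1-1 (log2 difference -1.11 ± 0.18, adjusted p = 0.0308). It did not pass without 1 library in 5 of 6 cases (adjusted p of 0.0618 to 0.110), by DESeq2 (0.0501) or by limma on FPKM values without a filter (0.141). AT5G03985, on the minus strand of chromosome 5, was at 7.78, 6.33 and 8.43 CPM in wild type and 4.49, 3.52 and 3.897 CPM in exa1-1 (log2 difference -0.92 ± 0.16, adjusted p = 0.000313). Neither overlapped between genotypes. Among other transcripts, the catalase gene CAT3 rose by 0.22 ± 0.06 from 685, 672 and 606 CPM in wild type, and AT5G42530, of unknown function, fell from 83.9, 126 and 89.2 CPM to 30.3, 62.5 and 36.9 CPM (log2 difference -1.196 ± 0.36).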
